A study of Mus musculus with 21 samples.

Results

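The genes described here encode collagens, laminins and other proteins of basement membranes, in the ventral hypothalamus (VH) of mice on 4 diet schedules. They were chosen by symbol from the deposited counts: every collagen chain (*col#a#*), every laminin chain (*lama#*, *lamb#*, *lamc#*), both nidogens, perlecan (*hspg2*), *sparc*, *sparcl1*, *smoc1* and *smoc2*, provided that the gene averaged at least 50 reads over the 21 libraries. Of the 21654 genes counted, 61 had such a symbol and 49 of these reached 50 reads, among them 33 of 43 collagen genes, 10 of 11 laminin genes and 6 of 7 others. Just inside the minimum was *col4a3* with 51.8 reads, and just outside it were *col13a1* with 49.4 and *nid2* with 46.8. Among the other genes under the minimum were *col6a4*, *col6a6*, *col9a1*, *col10a1*, *col14a1*, *col17a1*, *col20a1*, *col22a1* and *col28a1*. Since members were chosen by their mean over all libraries, a gene that is high in 1 group only could enter through that group, and counts over the 49 members describe these members only. *Col4a3* is such a case, with means of 68.6 reads in RC NoDS, 40.0 in RC → HFD, 47.4 in HFD → RC and 53.6 in HFD NoDS, and without RC NoDS its mean would have been under 50. No other member depended on 1 group in this way.

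Basement membranes are thin sheets in which a laminin network and a type IV collagen network are joined by nidogens and perlecan. In the brain they surround capillaries and lie under the meninges, while fibril-forming collagens come mostly from fibroblasts of the meninges and of the larger vessels. SPARC and its relatives are secreted proteins that bind collagen and regulate its assembly, and glia are a main source of SPARC and SPARCL1 in the brain.

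RNA-seq was performed on VH punches (circumventricular hypothalamus in the labels) of male mice (C57/B6J as the labels spell it), which were 12 to 14 weeks old at arrival. Polyadenylated RNA of 2 mice of the same group was pooled for each library, and tissue was taken at ZT6 after 3 hours of forced wakefulness. The 4 groups were RC NoDS (regular chow throughout, n = 5), RC → HFD (regular chow, then a week of high-fat diet, n = 6), HFD → RC (high-fat diet, then a week of regular chow, n = 5) and HFD NoDS (high-fat diet throughout, n = 5). Nothing beyond these pools of mice stands behind the replicates, so the p-values below measure the spread between pools. The diet switch (DS) groups are those whose diet was changed. No group carried a genetic change or a drug.

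The counts summed to between 16380781 and 16390598 reads per library, because the authors had resampled every library to a common depth. Libraries nevertheless differed in how many low genes they had captured. Of the 3116 genes averaging 5 to 50 reads, the share with a count of 0 ran from 1.12% to 7.22% in RC NoDS, from 2.31% to 22.4% in RC → HFD, from 5.68% to 31.9% in HFD → RC and from 7.70% to 32.9% in HFD NoDS. The libraries with the largest shares, HFD NoDS replicate 20 (32.9%) and HFD → RC replicate 17 (31.9%), also stood apart on principal components of all genes tested. Replicate 20 made up 75.7% of the first component, which held 19.3% of the variance and replicate 17 made up 72.9% of the third. Where leaving out both libraries changes the number of DEGs among the members, that number is given. Within groups, the 45 pairs of libraries had a chi-square per degree of freedom of 6.89 to 42.0, and 0 pairs were identical. The 9 markers of the ventral hypothalamus were all counted, led by *pomc* with 8304 reads on average. Because the tissue is bulk, fewer cells of a type and less RNA per cell cannot be told apart in any value below.

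Together the 49 members took 0.606% of all reads, and *sparc* and *sparcl1* alone took 77.6% of those. Per kilobase of exon, *sparcl1* stood highest with 12116 reads and *sparc* next with 11674. The transmembrane collagen *col23a1* followed with 675 reads per kilobase, then *col4a2* (304), *col25a1* (264), *smoc1* (222) and *lamb2* (198). The lowest were *col4a3* (5.20), *lama4* (7.72) and *col4a4* (8.26). Fibril-forming chains lay between 14.4 (*col3a1*) and 64.2 reads per kilobase (*col11a2*), and the laminin chains between 7.72 (*lama4*) and 198 (*lamb2*). The share of all reads in members other than *sparc* and *sparcl1* was lowest in HFD → RC replicate 15 (0.108%) and highest in RC NoDS replicate 6 (0.165%). HFD NoDS libraries held 0.137% to 0.163%, RC NoDS libraries 0.130% to 0.165%, RC → HFD libraries 0.109% to 0.137% and HFD → RC libraries 0.108% to 0.141%. The median over members of the deviation from each gene's mean was highest in HFD NoDS replicate 20 (0.35 on the log2 scale) and lowest in HFD → RC replicate 16 (−0.31).

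Each pair of groups was tested with edgeR over all 12768 genes averaging at least 50 reads, and a gene was called a DEG at a Benjamini-Hochberg adjusted p under 0.15. A log2 fold change is the second group named minus the first. The interaction asks whether the difference between current diets depends on the earlier diet, and is HFD NoDS minus HFD → RC, less RC → HFD minus RC NoDS. The pairs share groups, so their values are not independent of one another. The share of all genes at an unadjusted p under 0.05 is given for this fit of all 21 libraries only. Counts at that p from other fits have no such share beside them, and describe the members only. The median log2 fold change of all genes tested lay between −0.00469 and 0.00645 in every pair and in the interaction.

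Mice on unchanged diets (RC NoDS v HFD NoDS) gave 0 DEGs among the members with edgeR, where 0.0783% of all genes were DEGs. DESeq2 and limma-voom gave 0 as well, with 17 and 10 DEGs over all 12768 genes. An unadjusted p under 0.05 was reached by 7 members (14.3%) against 7.41% of all genes. All 7 were higher in HFD NoDS: *col4a4*, *col4a5*, *col8a2*, *col16a1*, *col18a1*, *nid1* and *smoc2*. The median log2 fold change of the members was 0.13, with 33 above 0 and 16 below. That count of 7 was 2 without RC NoDS replicate 2, 4 without RC NoDS replicate 5, 12 without HFD NoDS replicate 19 and 1 without HFD NoDS replicate 20. It was 1 without both libraries that stand apart and 3 with the share of low genes at 0 as a covariate. The median of 0.13 was 0.0789 without RC NoDS replicate 1, 0.0725 without HFD NoDS replicate 20, 0.0721 without both libraries that stand apart and 0.0067 with the covariate.

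The DS groups, of opposite current diets (RC → HFD v HFD → RC), gave 0 DEGs among the members with edgeR, DESeq2 and limma-voom, where 0.00783% of all genes were DEGs with edgeR. Only *sparcl1* had an unadjusted p under 0.05 (2.04% of the members, against 5.35% of all genes). Members were spread evenly, with 21 above 0, 28 below and a median of −0.03. Without RC → HFD replicate 9, 10 or 11 or HFD → RC replicate 15, the count at an unadjusted p under 0.05 was 0, and without HFD → RC replicate 16 it was 2. It was 0 with no filter and 2 with the covariate. The median lay between −0.07 and 0.04 with each library left out in turn.

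Mice given HFD for a week after regular chow (RC NoDS v RC → HFD) again gave 0 DEGs among the members with edgeR, where 0.0392% of all genes were DEGs. DESeq2 called 2 members (*sparc* and *sparcl1*) and limma-voom 0, of 96 and 5 among all 12768 genes (edgeR 5). An unadjusted p under 0.05 was reached by 7 members (14.3%) against 6.51% of all genes. Higher in RC → HFD were *sparc* and *sparcl1*, and lower were *col1a1*, *col6a1*, *col18a1*, *col23a1* and *col24a1*. The median was −0.11, with 13 members above 0 and 36 below. Leaving out RC NoDS replicate 3 gave 1 DEG, and leaving out RC NoDS replicate 1 raised the count at an unadjusted p under 0.05 to 11. Without both libraries that stand apart 1 member, *col24a1*, was a DEG, as it was when only these 2 groups were fitted (15 and 24 DEGs among all genes). The count of 7 was 11 with only these 2 groups and with the covariate. The median was −0.06 without RC NoDS replicate 6 and −0.19 without RC → HFD replicate 11.

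Between RC NoDS and HFD → RC, 2 members were DEGs with edgeR (0.282% of all genes were): *sparcl1*, which rose, and *col24a1*, which fell. DESeq2 called 3 members, adding *sparc*, and limma-voom called 1, *sparcl1*, of 147 and 7 among all 12768 genes (edgeR 36). Members with an unadjusted p under 0.05 numbered 8 (16.3%), against 8.1% of all genes, with 2 higher and 6 lower in HFD → RC. The median was −0.18, with 11 members above 0 and 38 below. The number of DEGs was 0 without RC NoDS replicate 1, 2 or 5 or HFD → RC replicate 13, 14 or 15. It was 1 without RC → HFD replicate 7, 8, 9 or 10, HFD → RC replicate 17 or HFD NoDS replicate 19 or 21. The count of 8 was 4 without RC NoDS replicate 5 or 6 or HFD → RC replicate 15. Without both libraries that stand apart, 4 members were DEGs, of 137 among all genes, and 13 members had an unadjusted p under 0.05. With the covariate 0 were DEGs (1 among all genes) and 17 had an unadjusted p under 0.05. The share of all genes at that p is not given for either setting, so neither count can be set against it. The median was −0.11 without RC NoDS replicate 6, and −0.30 and −0.09 without HFD → RC replicate 14 or 16.

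The groups eating HFD at collection (RC → HFD v HFD NoDS) differed in 1 DEG among the members, *col18a1* (0.0157% of all genes were DEGs). An unadjusted p under 0.05 was reached by 18 members (36.7%), against 7.49% of all genes. Of these 18, 15 were higher in HFD NoDS, and 3, *col6a3*, *col6a5* and *sparc*, were lower. The median was 0.26, with 38 members above 0 and 11 below. The count of 18 ran between 15 and 22 with each library left out in turn, and the median between 0.19 and 0.31. DEGs numbered 0 without RC NoDS replicate 3, RC → HFD replicate 7, 8, 9 or 12, HFD → RC replicate 13 or HFD NoDS replicate 20 or 23, and 5 without HFD NoDS replicate 19. Without both libraries that stand apart there were 0 DEGs, 15 members with an unadjusted p under 0.05 and a median of 0.19. The share of all genes at that p is not given for these fits. The number of DEGs was also 0 with a filter at 5 reads and with the covariate, and all genes gave 1 DEG in each of these 3 settings. DESeq2 called 3 members, of 32 among all genes (edgeR 2).

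Mice of the same earlier diet, HFD, that ate RC or HFD in the last week (HFD → RC v HFD NoDS) also differed in 1 DEG among the members, *smoc2* (0.0705% of all genes were DEGs). Here 23 members (46.9%) had an unadjusted p under 0.05, against 7.93% of all genes. In HFD NoDS, 18 of the 23 were higher and 5 (*col6a5*, *lama1*, *lama3*, *sparc* and *sparcl1*) were lower. The median was 0.30, with 38 members above 0 and 11 below. With each library left out in turn the count of 23 ran between 18 and 26. DESeq2 called 6 members and limma-voom 3, of 44 and 12 among all 12768 genes (edgeR 9). DEGs numbered 0 without HFD → RC replicate 15 or 17 or HFD NoDS replicate 20, 21 or 23, and 2 without RC NoDS replicate 2, RC → HFD replicate 8 or 11, HFD → RC replicate 14 or HFD NoDS replicate 24. Without both libraries that stand apart there were 0 DEGs (3 among all genes), and 19 members had an unadjusted p under 0.05. For this fit and those without 1 library, the share of all genes at that p is not given.

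Over all 4 groups, *col18a1* and *smoc2* were DEGs (edgeR adjusted p = 0.0810 and 0.104), where 0.149% of all genes were. Of the members 19 (38.8%) had an unadjusted p under 0.05, against 7.97% of all genes. The number of DEGs was 0 without RC → HFD replicate 8, 9 or 11 or HFD NoDS replicate 23. It was 1 without RC NoDS replicate 1 or 5, HFD → RC replicate 17 or HFD NoDS replicate 21 or 24, 4 without RC NoDS replicate 3 or HFD NoDS replicate 20, and 5 without HFD → RC replicate 16. Without both libraries that stand apart, *col18a1* and *smoc2* were no longer called, and the DEGs were 3 others, *col24a1*, *sparcl1* and *sparc* (edgeR adjusted p = 0.0767, 0.133 and 0.134), of 45 among all genes (19 with them). DESeq2 called 9 members and limma-voom 3, of 133 and 13 among all genes.

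In the interaction 1 member was a DEG, *col18a1* (0.0313% of all genes were DEGs), and 20 members (40.8%) had an unadjusted p under 0.05, against 8.84% of all genes. Of the 49 members, 40 had an interaction above 0, and the median was 0.42. The members with an unadjusted p under 0.05 and an interaction below 0 were *col6a5*, *lama1*, *lama3*, *sparc* and *sparcl1*. Leaving out each library in turn gave 19 to 24 members with an unadjusted p under 0.05 and medians between 0.34 and 0.55. With 1 library left out, neither the share of all genes at that p nor their number of DEGs is given. The number of member DEGs varied more. It was 13 without HFD NoDS replicate 19 and 7 without replicate 20 of that group. Without HFD → RC replicate 14 or 16 it was 8 and 4, without RC → HFD replicate 9 or 10 it was 2 and 5, and without RC NoDS replicate 3 it was 5. It was 0 without any of RC NoDS replicates 1, 5 and 6, RC → HFD replicates 7, 8, 11 and 12, HFD → RC replicates 13, 15 and 17, and HFD NoDS replicates 21, 23 and 24. With the 2 libraries that stand apart left out, it was 9, and DESeq2 called 11 members and limma-voom 5. Calls among all 12768 genes moved too, from 4 to 191 without those libraries, 116 with DESeq2 and 15 with limma-voom.

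By group means, both DS groups lay below both groups with unchanged diet in 29 of 49 members (59.2%), against 2662 of 12768 genes (20.8%). The opposite order, both DS means above, held for 6 members (12.2%): *col6a3*, *col6a5*, *lama1*, *lama3*, *sparc* and *sparcl1*. Among all genes it held for 1807 (14.2%). The lower order took in 8 of 11 fibril-forming chains, all 6 type IV chains and both multiplexins, but 0 of 3 short-chain and anchoring collagens. These counts of means carry no test, and they include *col4a3*, which reached the minimum only through its high mean in RC NoDS.

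**Figure D1:**
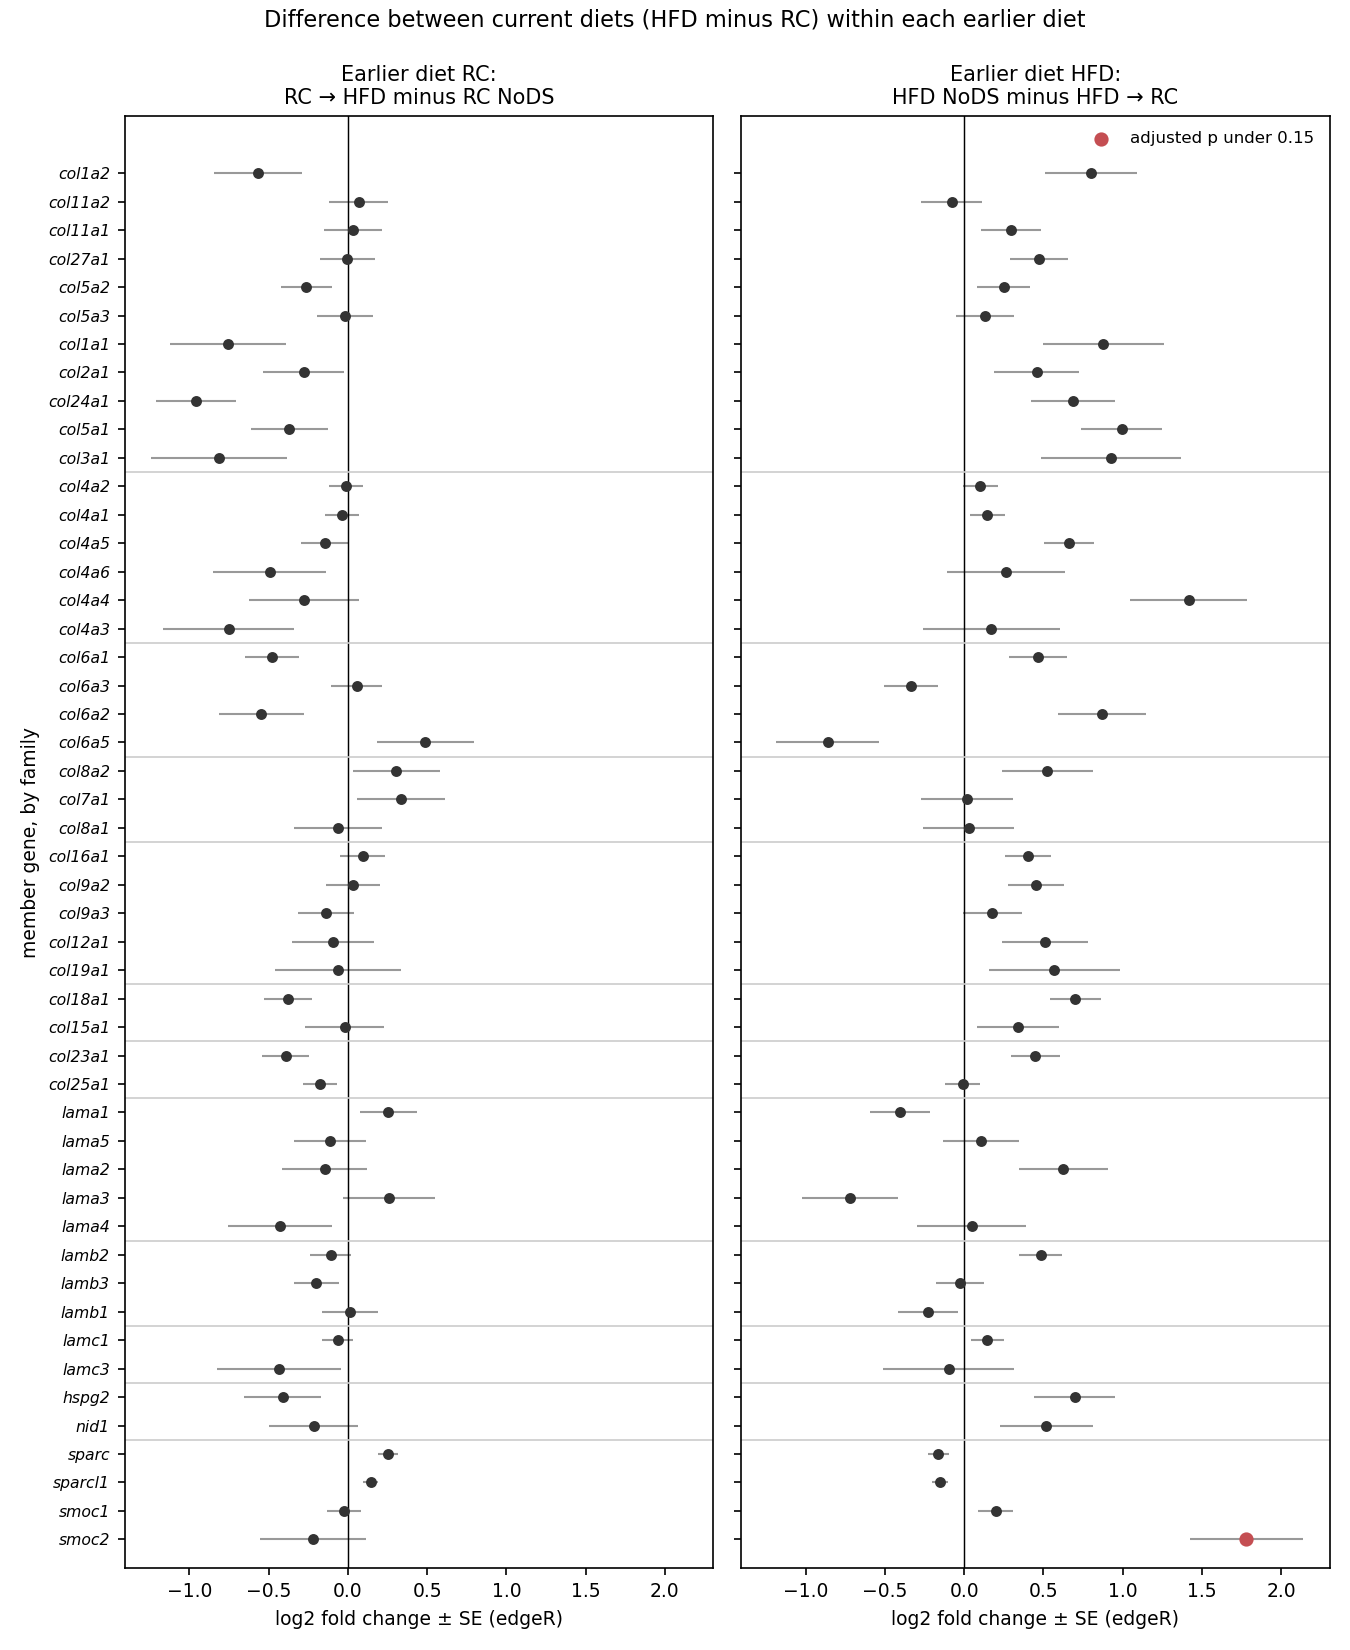
Log2 fold change with its SE (edgeR) of each of the 49 members, by family, for current HFD minus current RC, in mice whose earlier diet was RC (left, RC → HFD minus RC NoDS, 6 and 5 libraries) or HFD (right, HFD NoDS minus HFD → RC, 5 libraries each). Most members lie below 0 on the left (36 of 49) and above 0 on the right (38 of 49), and the single DEG of either panel, *smoc2*, is drawn in red.

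The fibril-forming collagens assemble into the banded fibres of connective tissue, and all 11 of their genes were members. In HFD → RC v HFD NoDS 6 of 11 had an unadjusted p under 0.05, all 6 higher in HFD NoDS, and the median was 0.47 (7.93% of all genes had such a p). In RC NoDS v HFD → RC 4 of 11 had one, all lower in HFD → RC, with a median of −0.36 (8.1% of all genes). The interaction median was 0.74, with 6 of 11 at an unadjusted p under 0.05 (8.84% of all genes). The shares of all genes given with each comparison also stand beside the counts of the other families and lists below. The largest interactions were those of *col3a1* (1.74 ± 0.616 SE), *col1a1* (1.64 ± 0.530), *col24a1* (1.64 ± 0.364), *col1a2* (1.37 ± 0.402) and *col5a1* (1.36 ± 0.352). *Col5a1* was called in the interaction without both libraries that stand apart (1.23, edgeR adjusted p = 0.144, against 0.198 with them). The cartilage chain *col11a2* was the exception in sign, with an interaction of −0.15 ± 0.268.

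*Col24a1* (ENSMUSG00000028197, chromosome 3 from 144955436 to 145214975 in the NCBIM37 (mm9) genome, as for all positions below) encodes a minor fibril-forming chain. Values of the groups of 5 are listed in the order of replicate number, which is 1, 2, 3, 5 and 6 in RC NoDS, 13 to 17 in HFD → RC and 19, 20, 21, 23 and 24 in HFD NoDS. RC NoDS libraries held 230, 200, 165, 237 and 163 reads of *col24a1*, and RC → HFD libraries 64 to 136 with a median of 98.5. HFD → RC libraries held 76, 133, 60, 91 and 109 reads, and HFD NoDS libraries 161, 76, 188, 151 and 183. All 5 RC NoDS libraries exceeded all 11 DS libraries, and 4 of 5 HFD NoDS libraries were above all of the DS groups, replicate 20 being the low one. *Col24a1* fell from RC NoDS to HFD → RC with a log2 fold change of −1.06 ± 0.265 SE (edgeR adjusted p = 0.146, lower in 5 of 5 libraries). For RC NoDS v RC → HFD the log2 fold change was −0.96 ± 0.250 (edgeR adjusted p = 0.443), and the interaction was 1.64 ± 0.364 (edgeR adjusted p = 0.176). The call was close to the threshold. For RC NoDS v HFD → RC the edgeR adjusted p was 0.452 without RC NoDS replicate 1, 0.266 without replicate 2 and 0.360 without replicate 5. Leaving out RC → HFD replicate 7, 8, 9 or 10 gave 0.185, 0.179, 0.167 and 0.165. Leaving out HFD → RC replicate 13, 14, 15 or 17 gave 0.342, 0.170, 0.359 and 0.163, and leaving out HFD NoDS replicate 19 or 21 gave 0.170 and 0.162. With the share of low genes at 0 as a covariate the log2 fold change was −0.83 (edgeR adjusted p = 0.729), and without both libraries that stand apart it was −1.12 (edgeR adjusted p = 0.0635). The call was also lost with no filter, a filter at 5 reads, library size only and robust dispersion (edgeR adjusted p = 0.156, 0.169, 0.164 and 0.156), and with limma-voom. The other values without both libraries were −0.96 for RC NoDS v RC → HFD (edgeR adjusted p = 0.149) and 1.87 for the interaction (edgeR adjusted p = 0.0405), which were calls.

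*Col1a2* (ENSMUSG00000029661, chromosome 6 from 4454814 to 4491543), a chain of type I collagen, had the most reads of the family. In RC NoDS its counts were 346, 633, 796, 493 and 900, and in RC → HFD they ran from 325 to 546 with a median of 420.5. HFD → RC libraries held 519, 520, 328, 314 and 588 reads, and HFD NoDS libraries 283, 1553, 522, 865 and 732. HFD NoDS held both the highest library, replicate 20, and the lowest, replicate 19, and all groups overlapped. The log2 fold change was 0.91 ± 0.277 SE for RC → HFD v HFD NoDS (edgeR adjusted p = 0.477) and 1.37 ± 0.402 for the interaction (edgeR adjusted p = 0.246).

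Meningeal and perivascular fibroblast markers, like 8 of these 11 chains, had lower means in both DS groups than in both groups of unchanged diet. All 12 of 12 markers were counted and 11 were tested, the most abundant was *igf2* with 1374 reads, and *slc47a1*, *ogn* and *lum* were at 0 in some library. Summed over the 12, RC NoDS libraries held 2472, 5762, 7059, 3410 and 8406 reads. RC → HFD libraries held 2597, 2138, 3038, 1008, 4222 and 2045 reads in the order of replicates 7 to 12. HFD → RC libraries held 4363, 2779, 722, 1166 and 5077 reads, and HFD NoDS libraries 1567, 9106, 4162, 6811 and 5767. Group means were 5422 ± 2472 (SD, n = 5), 2508 ± 1079.6 (n = 6), 2821 ± 1911 (n = 5) and 5483 ± 2831 (n = 5). The list held 0 DEGs with edgeR in every pair and in the interaction. In the interaction 11 of 11 had an unadjusted p under 0.05 and the median was 2.03. RC NoDS v RC → HFD gave 10 of 11 lower in RC → HFD at that level (median −1.08), and RC → HFD v HFD NoDS gave 8 of 11 higher in HFD NoDS (median 1.15). In RC NoDS v HFD → RC 5 of 11 were lower in HFD → RC at that level (median −0.93), and in HFD → RC v HFD NoDS 6 of 11 were higher in HFD NoDS (median 0.98). The chains did not all follow the markers within a group. HFD NoDS replicate 20, with the highest marker sum of all libraries, had the most reads of *col1a2* in its group (1553) and the fewest of *col24a1* (76). The part of the fibroblast markers in the results of the collagens was not tested.

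**Figure D2:**
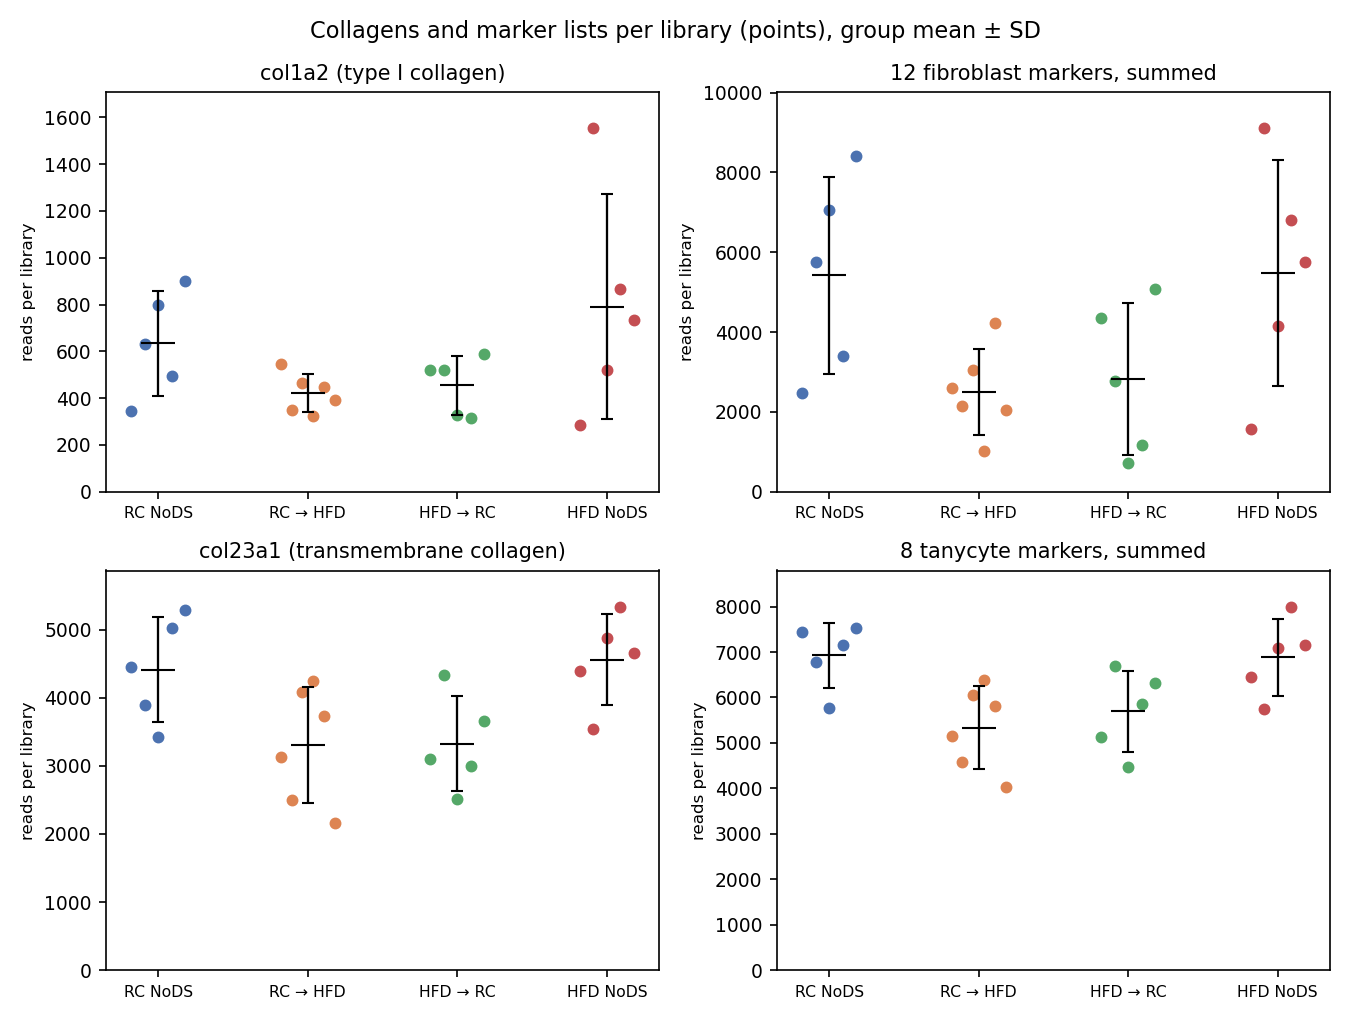
Reads per library of *col1a2* and *col23a1* (left) and summed reads of 12 fibroblast and 8 tanycyte markers (right). Each point is a library, and black lines are group means with their SD (n = 5, 6, 5 and 5). In all 4 panels both DS means lie below both means of unchanged diet, and groups overlap.

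Type IV collagen forms the network of the basement membrane itself. Its 6 chains are encoded by 3 head-to-head gene pairs: *col4a1* and *col4a2* overlap by 22 bases at their starts on chromosome 8, *col4a3* and *col4a4* are 71 bases apart on chromosome 1, and *col4a5* and *col4a6* are 1308 bases apart on chromosome X. All 6 had log2 fold changes below 0 in RC NoDS v HFD → RC (median −0.29) and above 0 in RC → HFD v HFD NoDS (median 0.45), with 0 DEGs by edgeR in any pair. The first count and median include *col4a3* (−0.51 ± 0.433 SE), which reached the read minimum only through its high mean in RC NoDS. Its value below 0 there was favoured by that choice and adds nothing to the count. In HFD → RC v HFD NoDS only *col4a4* (1.42 ± 0.369 SE) and *col4a5* (0.66 ± 0.158) had an unadjusted p under 0.05, and DESeq2 called both there. For the partner chains it was 0.17 ± 0.435 (*col4a3*) and 0.26 ± 0.373 (*col4a6*), and differences between partners were not tested.

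*Col4a2* (ENSMUSG00000031503, chromosome 8 from 11312805 to 11449287), which encodes a chain of the widespread heterotrimer, had the most reads of the family. RC NoDS libraries held 1867, 1691, 1949, 2359 and 2414 reads, and RC → HFD libraries 1694 to 2364 (median 1961). In HFD → RC the counts were 1728, 1891, 1758, 1839 and 2400, and in HFD NoDS 2062, 2255, 2378, 1685 and 1977. The 4 groups overlapped almost fully, and replicate 17 alone was high in HFD → RC. Its log2 fold change was 0.10 ± 0.111 SE for HFD → RC v HFD NoDS and 0.12 ± 0.154 for the interaction (edgeR adjusted p = 0.895).

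*Col4a5* (ENSMUSG00000031274, chromosome X from 137909928 to 138123778), a chain of a more restricted heterotrimer, varied more. RC NoDS libraries held 289, 274, 296, 373 and 401 reads of it, and RC → HFD libraries 232 to 398 with a median of 276.5. HFD → RC libraries held 253, 308, 255, 263 and 212, and HFD NoDS libraries 398, 459, 352, 462 and 382. All 5 HFD NoDS libraries exceeded all 5 of HFD → RC, while 1 RC → HFD library, replicate 11, reached into the HFD NoDS range. The log2 fold change was 0.66 ± 0.158 SE for HFD → RC v HFD NoDS (edgeR adjusted p = 0.230) and 0.81 ± 0.218 for the interaction (edgeR adjusted p = 0.239). *Col4a5* overlaps *gm15268* on its own strand and *gm15282* on the other, and *col4a2* overlaps *col4a1* and *gm15419* on the other strand. By the study's methods the library kit was stranded, but counting by strand is not stated. Reads of overlapping genes may therefore be mixed in these counts.

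Type VI collagen forms beaded filaments that anchor cells to the surrounding matrix, and 4 of its 6 chain genes were members. These 4 went different ways: all had an unadjusted p under 0.05 in RC → HFD v HFD NoDS, *col6a1* (0.39 ± 0.173 SE) and *col6a2* (1.06 ± 0.268) above 0 and *col6a3* (−0.34 ± 0.163) and *col6a5* (−1.06 ± 0.314) below. None was a DEG with edgeR, and DESeq2 called *col6a2*. The interaction of *col6a2* was 1.42 ± 0.388 (edgeR adjusted p = 0.239), and without both libraries that stand apart it was a call at 1.32 (edgeR adjusted p = 0.0980). *Col6a5* also had a log2 fold change of −0.86 ± 0.325 in HFD → RC v HFD NoDS and an interaction of −1.35 ± 0.447 (edgeR adjusted p = 0.312). The part of the fibroblast markers in the results of *col6a1* and *col6a2* was not tested.

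*Col6a1* (ENSMUSG00000001119, chromosome 10 from 76171537 to 76188913) had the most reads of the type VI chains. RC NoDS libraries held 379, 505, 634, 554 and 566 reads, and RC → HFD libraries 298 to 472 with a median of 373.5. The HFD → RC libraries held 400, 395, 231, 235 and 508, and the HFD NoDS libraries 456, 442, 455, 600 and 501. In RC NoDS 4 of 5 libraries were above every RC → HFD library, and replicate 1 was low. The log2 fold change was −0.48 ± 0.172 SE for RC NoDS v RC → HFD (edgeR adjusted p = 0.685) and 0.94 ± 0.250 for the interaction (edgeR adjusted p = 0.234). It was −0.55 ± 0.181 for RC NoDS v HFD → RC (edgeR adjusted p = 0.314). With HFD NoDS replicate 20 and HFD → RC replicate 17 left out, *col6a1* was called in the interaction (1.14, edgeR adjusted p = 0.0677) and in RC NoDS v HFD → RC (−0.72, edgeR adjusted p = 0.0795).

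Short-chain and anchoring collagens, which form lattices and anchoring fibrils, were represented by *col7a1*, *col8a1* and *col8a2*, 3 of 5 genes. Only *col8a2* in RC NoDS v HFD NoDS had an unadjusted p under 0.05 in any pair, and interactions ran from −0.31 (*col7a1*) to 0.22 (*col8a2*). *Col8a2* (ENSMUSG00000056174, chromosome 4 from 125964037 to 125991574) encodes a chain of type VIII collagen, found beneath endothelia. The libraries of RC NoDS held 101, 162, 191, 151 and 235 reads of *col8a2*, and RC → HFD libraries 83 to 367 (median 182.5). The libraries of HFD → RC held 166, 139, 185, 204 and 188 reads, and HFD NoDS libraries 187, 435, 219, 204 and 226. HFD NoDS replicate 20 was far above its group, RC → HFD held both the lowest and the next highest library, and all groups overlapped. For RC NoDS v HFD NoDS the log2 fold change was 0.62 ± 0.285 SE (edgeR adjusted p = 0.657). The gene overlaps *al606976.2* on the other strand.

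The fibril-associated collagens (FACIT) sit on the surface of fibrils, and 5 of 9 were members: *col9a2*, *col9a3*, *col12a1*, *col16a1* and *col19a1*. All 5 had higher means in HFD NoDS than in every other group, with a median of 0.45 in HFD → RC v HFD NoDS, where 2 of 5 had an unadjusted p under 0.05. *Col16a1* (ENSMUSG00000040690, chromosome 4 from 129725084 to 129776527) had the most reads. Libraries of RC NoDS held 699, 583, 896, 815 and 782, and RC → HFD libraries 689 to 954 with a median of 747. Libraries of HFD → RC held 886, 578, 753, 621 and 761, and HFD NoDS libraries 814, 1279, 1093, 859 and 727. HFD NoDS replicates 20 and 21 were above every other library, and the rest of that group lay within the others. The log2 fold change was 0.40 ± 0.148 SE for HFD → RC v HFD NoDS (edgeR adjusted p = 0.530) and 0.36 ± 0.148 for RC NoDS v HFD NoDS (edgeR adjusted p = 0.657).

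Both multiplexins, *col15a1* and *col18a1*, were members. These collagens carry heparan or chondroitin sulfate chains and lie in vascular and epithelial basement membranes, and the C-terminal fragment of collagen XVIII is endostatin, an inhibitor of vessel growth. *Col15a1* had log2 fold changes from −0.06 ± 0.260 SE to 0.34 ± 0.259 over the pairs, with 0 calls by edgeR at either level.

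*Col18a1* (ENSMUSG00000001435, chromosome 10 from 76514923 to 76629293) was a DEG in RC → HFD v HFD NoDS, over all 4 groups and in the interaction, the first 2 of which were lost without both libraries that stand apart. The RC NoDS libraries held 424, 342, 366, 484 and 478 reads of it, and RC → HFD libraries 267 to 366 with a median of 305.5. The HFD → RC libraries held 341, 448, 244, 376 and 260, and HFD NoDS libraries 565, 675, 489, 549 and 444. All 5 HFD NoDS libraries exceeded all 6 of RC → HFD, and 4 of 5 exceeded all of HFD → RC. RC NoDS lay between, overlapping all other groups. From RC → HFD to HFD NoDS *col18a1* rose by 0.78 ± 0.151 SE on the log2 scale (edgeR adjusted p = 0.120, higher in 5 of 5 libraries). For HFD → RC v HFD NoDS the log2 fold change was 0.70 ± 0.159 (edgeR adjusted p = 0.152), and for RC NoDS v RC → HFD −0.38 ± 0.152 (edgeR adjusted p = 0.695). The interaction was 1.08 ± 0.220 (edgeR adjusted p = 0.145). Without RC → HFD replicate 7, 8, 9 or 12 the edgeR adjusted p for RC → HFD v HFD NoDS was 0.154, 0.473, 0.304 and 0.235. It was 0.153 without RC NoDS replicate 3, 0.171 without HFD → RC replicate 13, 0.438 without HFD NoDS replicate 20 and 0.241 without HFD NoDS replicate 23. With the 2 libraries that stand apart left out, the log2 fold change was 0.68 (edgeR adjusted p = 0.318), and the call was also lost with a filter at 5 reads and with the covariate (edgeR adjusted p = 0.167 and 0.324). For the interaction, the edgeR adjusted p was 0.203, 0.284 and 0.231 without RC NoDS replicate 1, 5 or 6, and 0.219, 0.298, 0.158 and 0.310 without RC → HFD replicate 7, 8, 11 or 12. It was 0.210, 0.385 and 0.169 without HFD → RC replicate 13, 15 or 17, and 0.190, 0.383 and 0.249 without HFD NoDS replicate 21, 23 or 24. With the 2 libraries that stand apart left out, the interaction was 0.91 (edgeR adjusted p = 0.0888), and with a filter at 5 reads the call was lost (edgeR adjusted p = 0.174). The folate carrier gene *slc19a1* overlaps *col18a1* on the other strand, and reads of the 2 may be mixed in these counts. *Slc19a1* averaged 392 reads, and its log2 fold change was 0.22 ± 0.135 for RC → HFD v HFD NoDS and 0.29 ± 0.195 for the interaction (edgeR adjusted p = 0.739 and 0.729). For RC NoDS v RC → HFD, where *col18a1* had −0.38, *slc19a1* had −0.30 ± 0.135 (edgeR adjusted p = 0.727, an unadjusted p under 0.05). The fibroblast markers were also higher in HFD NoDS than in both DS groups, and their part in the results of *col18a1*, *smoc2*, *nid1* and *lamb2* was not tested.

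**Figure D3:**
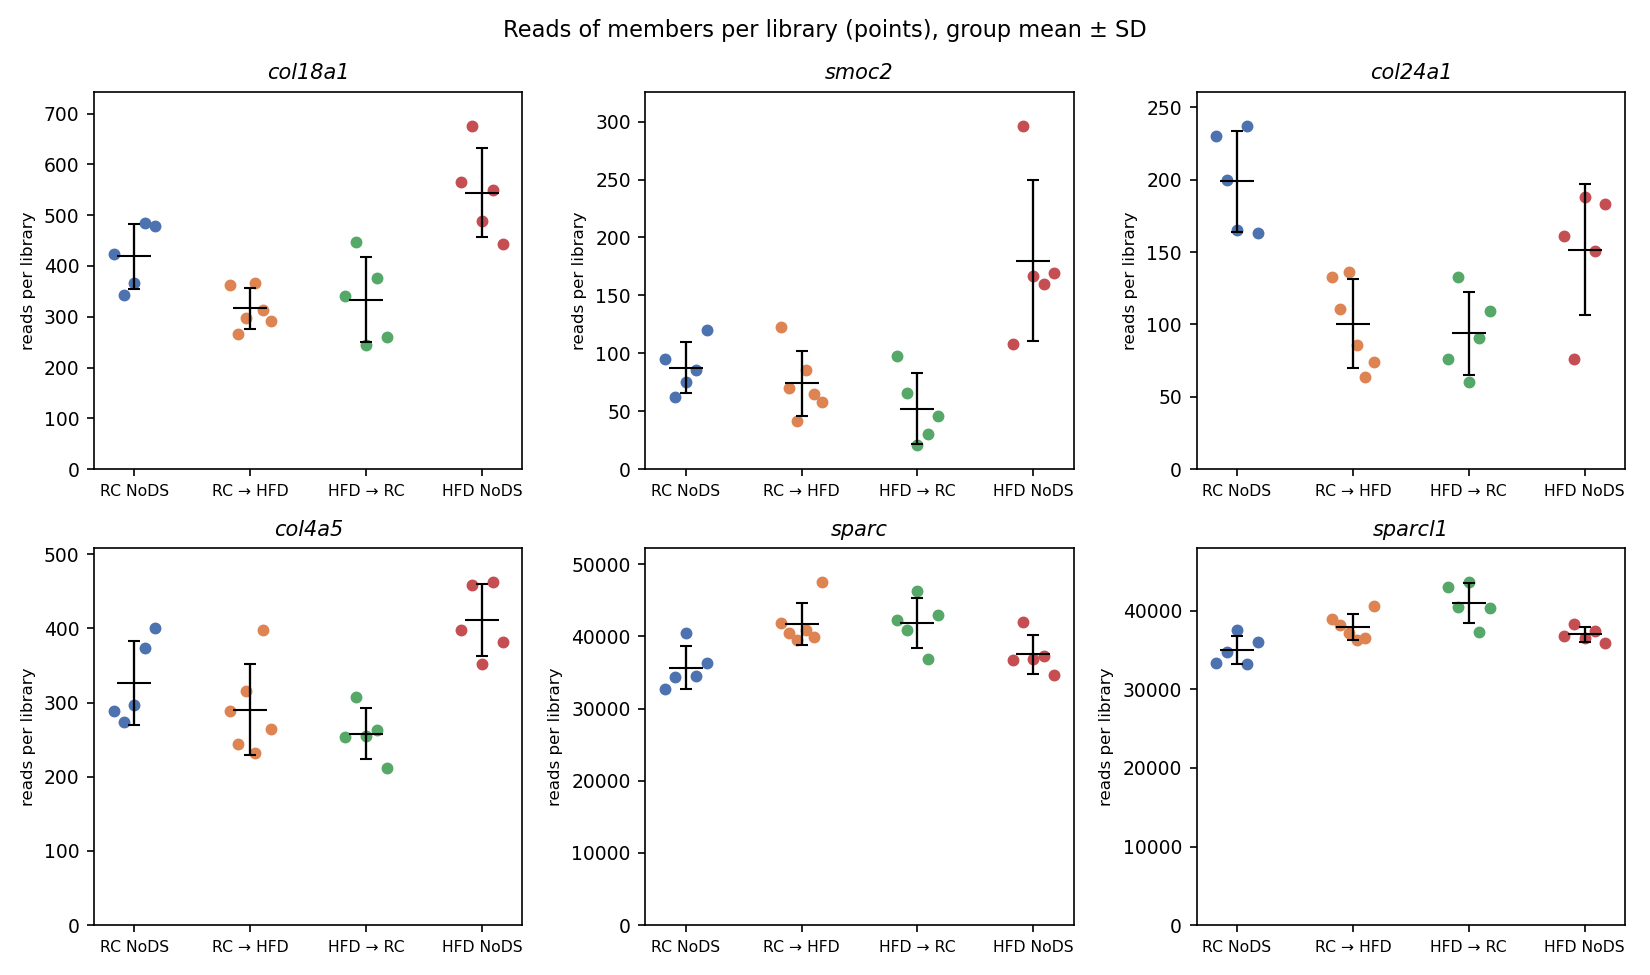
Reads per library of 6 members (each point a library, black lines the group mean with its SD; 6 libraries in RC → HFD and 5 in each other group). For *col18a1* and *smoc2* HFD NoDS is the highest group, for *col24a1* both DS groups lie below RC NoDS, and for *sparc* and *sparcl1* both DS means are above the others.

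The transmembrane collagens *col23a1* and *col25a1* span the cell membrane and are shed from it. *Col25a1*, the precursor of a collagen found in amyloid plaques, lay between −0.18 ± 0.108 SE and 0.09 ± 0.108 in all pairs. *Col23a1* (ENSMUSG00000063564, chromosome 11 from 51103422 to 51397420) had counts of 4447, 3889, 3429, 5019 and 5284 in RC NoDS, and 2168 to 4247 with a median of 3427 in RC → HFD. In HFD → RC they were 3103, 4333, 2508, 3005 and 3663, and in HFD NoDS 4400, 3536, 4871, 5336 and 4663. In HFD NoDS 4 of 5 libraries were above all libraries of the DS groups and replicate 20 was low, whereas in RC NoDS replicates 2 and 3 fell within the DS range. The log2 fold change was −0.39 ± 0.148 SE for RC NoDS v RC → HFD (edgeR adjusted p = 0.685), 0.45 ± 0.155 for HFD → RC v HFD NoDS (edgeR adjusted p = 0.519) and 0.84 ± 0.214 for the interaction (edgeR adjusted p = 0.196). The interaction was a call without both libraries that stand apart (0.95, edgeR adjusted p = 0.0888).

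Markers of tanycytes, the ependymal cells that line the floor of the third ventricle, likewise had lower means in both DS groups than in both groups of unchanged diet. All 8 of 8 were counted and tested, the most abundant was *vim* with 1694 reads, and 0 were at 0 in any library. Summed, they took 7434, 6778, 5766, 7160 and 7530 reads in RC NoDS and 5162, 4579, 6054, 6395, 5813 and 4027 in RC → HFD. The libraries of HFD → RC held 5140, 6693, 4476, 5846 and 6319 of these reads, and HFD NoDS libraries 6449, 5743, 7080, 7994 and 7148. Means were 6934 ± 715 (SD, n = 5), 5338 ± 914 (n = 6), 5695 ± 895 (n = 5) and 6883 ± 841 (n = 5). With edgeR 0 of 8 were DEGs in the interaction, 6 of 8 had an unadjusted p under 0.05 and the median was 0.67. Their part in the results of *col23a1* was not tested.

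Laminins are trimers of an alpha, a beta and a gamma chain, and laminin networks start the assembly of a basement membrane. Of the 10 member chains 0 were DEGs with edgeR, and DESeq2 called 1, *lamb2*, in HFD → RC v HFD NoDS. The alpha chains split by sign in HFD → RC v HFD NoDS: *lama2* (0.62 ± 0.281 SE) was above 0, while *lama1* (−0.41 ± 0.187) and *lama3* (−0.72 ± 0.305) were below. *Lama4* and *lama5* had log2 fold changes of 0.05 ± 0.342 and 0.11 ± 0.239. *Lamc3* and *lamb3* stayed within −0.47 and 0.09 in all pairs.

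*Lama1* (ENSMUSG00000032796, chromosome 17 from 68046605 to 68171985), an alpha chain of early basement membranes that persists in the meninges, had the most reads of the alpha chains. The libraries of RC NoDS held 253, 341, 356, 280 and 285 reads of *lama1*, and RC → HFD libraries 245 to 451 with a median of 365.5. Libraries of HFD → RC held 310, 405, 479, 372 and 288, and HFD NoDS libraries 385, 242, 329, 243 and 208. The 3 lowest libraries of all were in HFD NoDS, but replicate 19 of that group was high. The log2 fold change was −0.41 ± 0.187 SE for HFD → RC v HFD NoDS (edgeR adjusted p = 0.613) and −0.66 ± 0.259 for the interaction (edgeR adjusted p = 0.428).

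*Lamb2* (ENSMUSG00000052911, chromosome 9 from 108382193 to 108392861) encodes a beta chain of vascular and synaptic laminins. Its counts were 1033, 1052, 1184, 1027 and 1402 in RC NoDS and 899 to 1205 (median 1036.5) in RC → HFD. In HFD → RC they were 1073, 1205, 907, 662 and 891, and in HFD NoDS 1047, 1730, 1243, 1288 and 1347. In HFD NoDS 4 of 5 libraries were above all libraries of the DS groups, and replicate 19 was within their range. Its log2 fold change was 0.48 ± 0.135 SE for HFD → RC v HFD NoDS (edgeR adjusted p = 0.401) and 0.59 ± 0.187 for the interaction (edgeR adjusted p = 0.277).

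*Lamc1* (ENSMUSG00000026478, chromosome 1 from 155066052 to 155179916), the gamma chain of most laminins, varied little. Libraries of RC NoDS held 638, 688, 833, 774 and 820 reads, and RC → HFD libraries 629 to 742 with a median of 714. HFD → RC libraries had counts of 676, 838, 700, 629 and 825, and HFD NoDS libraries of 727, 934, 801, 845 and 763. The groups overlapped, although 4 of 5 HFD NoDS libraries were above every RC → HFD library. This gave a log2 fold change of 0.20 ± 0.0993 SE for RC → HFD v HFD NoDS (edgeR adjusted p = 0.681). *Lamc1* overlaps *gm8818* on the other strand.

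Nidogen and perlecan link the laminin network to that of type IV collagen. In RC → HFD v HFD NoDS both *nid1* (0.83 ± 0.280 SE) and *hspg2* (0.68 ± 0.243) had an unadjusted p under 0.05, and neither was a DEG with edgeR, DESeq2 or limma-voom. *Hspg2* (ENSMUSG00000028763, chromosome 4 from 137024634 to 137126545) encodes perlecan, the heparan sulfate proteoglycan of basement membranes. The RC NoDS libraries held 148, 260, 211, 377 and 380 reads of *hspg2*, and RC → HFD libraries 121 to 229 with a median of 219. In HFD → RC there were 224, 232, 145, 216 and 192 reads, and in HFD NoDS 147, 464, 324, 403 and 304. In both groups of unchanged diet the libraries were widely spread, replicates 1 and 19 being the low ones, and 4 of 5 HFD NoDS libraries were above all of the DS groups. The interaction was 1.11 ± 0.353 SE (edgeR adjusted p = 0.280). The fibroblast markers listed above had their 2 lowest sums of the unchanged diets in the same replicates 1 and 19, and their part in this result was not tested.

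Of the SPARC family, the genes looked for by symbol were *sparc*, *sparcl1*, *smoc1* and *smoc2*, and all 4 were members. *Smoc2* (ENSMUSG00000023886, chromosome 17 from 14416513 to 14541797), which encodes a secreted calcium-binding protein of basement membranes, had few reads. The libraries of RC NoDS held 95, 62, 75, 86 and 120, and RC → HFD libraries 42 to 123 (median 67.5). The HFD → RC libraries held 98, 66, 21, 30 and 46, and HFD NoDS libraries 108, 296, 167, 160 and 169. All 5 HFD NoDS libraries exceeded all 5 of HFD → RC, and 4 of 5 exceeded all of the other groups, replicate 20 being the highest. *Smoc2* rose from HFD → RC to HFD NoDS by 1.78 ± 0.357 SE on the log2 scale (edgeR adjusted p = 0.0896, higher in 5 of 5 libraries). For RC → HFD v HFD NoDS the log2 fold change was 1.28 ± 0.330 (edgeR adjusted p = 0.380), and the interaction was 2.00 ± 0.485 (edgeR adjusted p = 0.176). Leaving out HFD → RC replicate 15, 16 or 17 gave an edgeR adjusted p of 0.276, 0.203 and 0.219 for HFD → RC v HFD NoDS. Leaving out HFD NoDS replicate 20, 21 or 23 gave 0.258, 0.156 and 0.212. With the 2 libraries that stand apart left out, the log2 fold change was 1.47 (edgeR adjusted p = 0.305), and with only these 2 groups fitted it was 1.78 (edgeR adjusted p = 0.560). The interaction of *smoc2* was 1.69 without both libraries (edgeR adjusted p = 0.140), a call. *Smoc1*, a close relative, had a log2 fold change of 0.20 ± 0.111 for HFD → RC v HFD NoDS.

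*Sparcl1* (ENSMUSG00000029309, chromosome 5 from 104508130 to 104543107), also known as hevin, is secreted by astrocytes and promotes synapse formation. Libraries of RC NoDS held 33352, 34726, 37503, 33258 and 36013 reads of *sparcl1*, and RC → HFD libraries 36269 to 40637 with a median of 37693. The libraries of HFD → RC held 43001, 40496, 43606, 37288 and 40365, and HFD NoDS libraries 36787, 38364, 36468, 37367 and 35910. In HFD → RC 4 of 5 libraries were above every RC NoDS library, and RC NoDS replicate 3 alone was above the lowest HFD → RC library, replicate 16. *Sparcl1* rose from RC NoDS to HFD → RC with a log2 fold change of 0.25 ± 0.05 SE (edgeR adjusted p = 0.0614). For HFD → RC v HFD NoDS the log2 fold change was −0.15 ± 0.0499 (edgeR adjusted p = 0.486), and the interaction was −0.30 ± 0.0692 (edgeR adjusted p = 0.176). Leaving out RC NoDS replicate 1, 2 or 5 gave an edgeR adjusted p of 0.334, 0.167 and 0.169, and leaving out HFD → RC replicate 13, 14 or 15 gave 0.270, 0.164 and 0.206. With the share of low genes at 0 as a covariate it was 0.280, and without both libraries that stand apart 0.0391. The interaction of *sparcl1* was a call without both libraries (−0.33, edgeR adjusted p = 0.0798). The gene overlaps *gm16990* on the other strand.

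*Sparc* (ENSMUSG00000018593, chromosome 11 from 55208002 to 55233582), also called osteonectin, binds collagen and counters the synaptic action of SPARCL1. The RC NoDS libraries held 32687, 34310, 40510, 34523 and 36288 reads of *sparc*, and RC → HFD libraries 39518 to 47487 with a median of 40710.0. Libraries of HFD → RC held 42279, 40923, 46247, 36807 and 42961, and HFD NoDS libraries 36771, 42023, 36874, 37333 and 34589. RC NoDS libraries other than replicate 3 were below every DS library, and HFD NoDS replicate 20 alone of its group was above all of RC NoDS. Its log2 fold change was 0.25 ± 0.0649 SE for RC NoDS v RC → HFD (edgeR adjusted p = 0.431) and 0.26 ± 0.0676 for RC NoDS v HFD → RC (edgeR adjusted p = 0.167). The interaction was −0.42 ± 0.0937 (edgeR adjusted p = 0.176). *Sparc* was called without both libraries that stand apart in RC NoDS v HFD → RC (0.25, edgeR adjusted p = 0.113) and in the interaction (−0.46, edgeR adjusted p = 0.0602).

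Oligodendrocyte markers were also highest in HFD → RC. All 9 of 9 were counted and tested, *mbp* was the most abundant with 31251 reads, and 0 were at 0 in any library. Summed, they took 38242, 44232, 54993, 38910 and 57111 reads in RC NoDS, and 61351, 51062, 49414, 51224, 44616 and 65321 in RC → HFD. The HFD → RC libraries held 104887, 140217, 80789, 46744 and 65095, and HFD NoDS libraries 58989, 99974, 53428, 97151 and 46072. In RC NoDS v HFD → RC 4 of 9 were DEGs with edgeR and the median log2 fold change was 0.85. For RC NoDS v HFD NoDS 9 of 9 had an unadjusted p under 0.05, all higher in HFD NoDS, with a median of 0.55 and 0 DEGs. There the log2 fold change was also above 0 for *sparc* (0.09 ± 0.0676 SE) and *sparcl1* (0.10 ± 0.0499), both with an unadjusted p over 0.05. In the interaction all 9 markers were below 0, as *sparc* and *sparcl1* were, with a median of −0.47. Of these markers 2 had an unadjusted p under 0.05 there, with 0 DEGs by edgeR. Among the HFD → RC libraries, replicate 16 was lowest for *sparc*, *sparcl1* and these markers. Replicate 15 was highest for both genes and replicate 14 for the markers. Astrocyte markers (10 of 10, led by *aldoc* with 19463 reads, 0 at 0 in any library) took 59041, 61966, 67006, 59185 and 60834 reads in RC NoDS and 65037, 65742, 63857, 60636, 61013 and 61550 in RC → HFD. They took 66939, 66359, 68236, 63489 and 66039 reads in HFD → RC, and 61469, 69995, 61476, 66379 and 58063 in HFD NoDS. In the interaction 4 of 10 astrocyte markers had an unadjusted p under 0.05, all below 0, with 0 DEGs by edgeR and a median of −0.18. The part of these lists, and of the neuron markers given further on, in the results of *sparc* and *sparcl1* was not tested.

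The other vascular markers were close to level. Endothelial markers (12 of 12, led by *flt1* with 948 reads) summed to 3685 ± 409.7, 3865 ± 316, 3888 ± 288 and 3936 ± 413 reads (mean and SD, with RC NoDS first, then both DS groups, RC → HFD before HFD → RC, then HFD NoDS, of 5, 6, 5 and 5 libraries). Pericyte and smooth muscle markers (11 of 11, 9 tested, led by *rgs5* with 759 reads) summed to 2320.4 ± 362, 2346 ± 110.2, 2284 ± 300.4 and 2449 ± 427 in the same order. In the interaction 0 of 12 endothelial and 1 of 9 pericyte and smooth muscle markers had an unadjusted p under 0.05, with medians of −0.14 and 0.10.

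Of the remaining lists, microglia markers (8 of 8, led by *csf1r*) summed to 5624 ± 379.9, 5563.5 ± 307, 6175 ± 674 and 6501 ± 584 reads, with an interaction median of 0.07. Markers of oligodendrocyte precursors (8 of 8, led by *olig1*) summed to 7266 ± 823, 7719 ± 711, 8361 ± 1137 and 8011 ± 707, with a median of −0.21. Neuron markers (10 of 10, led by *eno2*) summed to 62163 ± 2088, 67052.5 ± 3425, 66166 ± 4153 and 64850.4 ± 3008, with a median of −0.23. In the interaction 5 of 10 neuron markers had an unadjusted p under 0.05, all below 0, and in RC NoDS v RC → HFD 5 of 10 did, all higher in RC → HFD, with 0 DEGs by edgeR in either. These are the directions of *sparc* and *sparcl1*. Blood markers (5 of 5, led by *hbb-b1*) summed to 3883 ± 524, 1712.5 ± 455, 3199.6 ± 2244 and 2539 ± 1203. All 5 blood markers were lower in RC → HFD than in RC NoDS at an unadjusted p under 0.05, with 0 DEGs by edgeR. Choroid plexus markers (10 of 10, but 3 tested, led by *enpp2*, with *ttr* and 6 others at 0 in some library) summed to 3107 ± 144, 3049.8 ± 272, 3489.6 ± 399.8 and 3177 ± 226. Pituitary markers (7 of 7, 5 tested, led by *cga*) ran from 50 to 2945 reads over single libraries, with *gh*, *prl*, *fshb*, *tshb* and *cga* at 0 in some. Markers of the ventral hypothalamus (9 of 9, 8 tested) summed to 18517 ± 2759, 19169 ± 2863, 18539 ± 3151 and 21334 ± 2479. In the interaction 3 of 8 had an unadjusted p under 0.05, with 0 DEGs by edgeR. The edgeR DEGs numbered 4 in RC NoDS v HFD NoDS, 3 in RC NoDS v RC → HFD and 2 in HFD → RC v HFD NoDS. They numbered 1 in RC NoDS v HFD → RC, 1 in RC → HFD v HFD → RC, 0 in RC → HFD v HFD NoDS and 4 over all 4 groups.

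Genes that act with the members were also examined. Of 14 matrix receptors, among them integrins, dystroglycan and discoidin domain receptors, 13 were tested and 0 were DEGs with edgeR in any pair. In RC → HFD v HFD NoDS 1 had an unadjusted p under 0.05, and in the interaction 2 had one, with a median of 0.13. Lowest in unadjusted p over all 4 groups was *itgb4* (ENSMUSG00000020758), a laminin-binding integrin subunit, with 0.88 ± 0.328 SE for RC NoDS v HFD NoDS (edgeR adjusted p = 0.640). Its libraries ran from 104 to 218 reads in RC NoDS and from 150 to 527 in HFD NoDS. *Itgb1* (ENSMUSG00000025809), the common beta subunit of collagen and laminin receptors, ran from 1356 to 1792 reads in RC NoDS and from 939 to 1496 in RC → HFD. Its log2 fold change between these was −0.26 ± 0.108 (edgeR adjusted p = 0.701).

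Enzymes that modify or process collagen numbered 21, of which 18 were tested and 0 were DEGs with edgeR in any pair. In the interaction 5 of 18 had an unadjusted p under 0.05 (4 above 0, 1 below), with a median of 0.10. *Pcolce* (ENSMUSG00000029718), an enhancer of procollagen processing, ran from 107 to 282 reads in RC NoDS, 28 to 178 in RC → HFD, 26 to 187 in HFD → RC and 51 to 455 in HFD NoDS. Groups overlapped, and the interaction was 2.43 ± 0.683 SE (edgeR adjusted p = 0.246). *Plod1* (ENSMUSG00000019055), a lysyl hydroxylase, had a log2 fold change of 0.41 ± 0.119 for RC NoDS v HFD NoDS (edgeR adjusted p = 0.607), with 513 to 758 reads in RC NoDS and 684 to 933 in HFD NoDS.

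Matrix proteases and their inhibitors gave 15 tested genes of 19, again with 0 DEGs by edgeR. In the interaction 5 of 15 had an unadjusted p under 0.05, with 2 above 0 and 3 below, and the median was −0.04. *Ctsl* (ENSMUSG00000021477), a lysosomal protease, had 2908 to 3201 reads in RC NoDS, 2413 to 2828 in RC → HFD, 2511 to 2812 in HFD → RC and 2568 to 3635 in HFD NoDS. All 5 RC NoDS libraries exceeded all 11 DS libraries. The interaction of *ctsl* was 0.41 ± 0.0994 SE (edgeR adjusted p = 0.176). *Timp3* (ENSMUSG00000020044), a matrix-bound inhibitor of metalloproteases, had an interaction of 0.46 ± 0.142 (edgeR adjusted p = 0.272).

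Other matrix genes, such as fibronectin, fibulins and small proteoglycans, gave 19 tested genes of 20 and 0 DEGs by edgeR. In RC → HFD v HFD NoDS 7 of 19 had an unadjusted p under 0.05, all higher in HFD NoDS, and the median was 0.17. *Fn1* (ENSMUSG00000026193), which encodes fibronectin, held 469, 917, 1170, 820 and 1320 reads in RC NoDS and 445 to 777 (median 643.5) in RC → HFD. It held 907, 871, 611, 582 and 747 reads in HFD → RC and 592, 1608, 1123, 1672 and 994 in HFD NoDS. Again 4 of 5 HFD NoDS libraries were above all libraries of the DS groups, and replicate 19 was low. This gave a log2 fold change of 0.94 ± 0.223 SE for RC → HFD v HFD NoDS (edgeR adjusted p = 0.312). *Bgn* (ENSMUSG00000031375), biglycan, had an interaction of 1.61 ± 0.461 (edgeR adjusted p = 0.246). *Dcn*, *lum* and *ogn* belong to both this list and the fibroblast markers. The fibroblast markers were higher in HFD NoDS in the same comparison (8 of 11 at an unadjusted p under 0.05, median 1.15) and above 0 in the interaction (11 of 11, median 2.03). Their part in the results of *fn1*, *bgn* and *pcolce* was not tested.

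Chains that share a trimer, a fibril or a start region were correlated over the 21 libraries on the log2 scale, with permutation p-values adjusted over the 6 pairs computed. Pearson's r was highest for *col1a2* with *col3a1*, at 0.892 (permutation p = 1e-05, the smallest that 100000 permutations can give, adjusted 3e-05). Spearman's rho of this pair was 0.888 (permutation p = 1e-05, adjusted 6e-05), and r was 0.881 without the 2 libraries farthest from the median and 0.858 after group means were subtracted. *Col1a1* with *col1a2* had an r of 0.865 (permutation p = 1e-05, adjusted 3e-05) and a rho of 0.792 (p = 5e-05, adjusted 0.00015). Without the 2 farthest libraries r was 0.799, and after group means it was 0.821. *Col4a1* with *col4a2* had an r of 0.739 (permutation p = 0.00029, adjusted 0.000435) and a rho of 0.716 (p = 0.00038, adjusted 0.00057), with 0.709 and 0.733 in the other forms. For *lama2* with *lamb2* r was 0.763 (permutation p = 5e-05, adjusted 0.0001) and rho 0.681 (p = 0.0009, adjusted 0.00108), with 0.677 and 0.699. *Col6a1* with *col6a2* had an r of 0.699 (permutation p = 0.00056, adjusted 0.000672) and a rho of 0.774 (p = 0.00012, adjusted 0.00024), with 0.599 and 0.601. *Lamb1* with *lamc1*, which join in the same laminins, did not correlate detectably, with an r of −0.13 (permutation p = 0.566, adjusted 0.566) and a rho of −0.08 (p = 0.729, adjusted 0.729). The r of this pair was −0.28 without the 2 farthest libraries and 0.02 after group means.

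The other head-to-head pairs were added after the data had been seen, and their p-values were adjusted over all 8 pairs. *Col4a5* with *col4a6* had an r of 0.465 (permutation p = 0.0328, adjusted 0.0438) and a rho of 0.595 (p = 0.00512, adjusted 0.00683). Without the 2 farthest libraries r was 0.422 (permutation p = 0.0708) and rho 0.539 (p = 0.0194), and after group means r was 0.485. *Col4a3* with *col4a4* had an r of 0.299 (permutation p = 0.189, adjusted 0.216) and a rho of 0.142 (p = 0.538, adjusted 0.615), with 0.161 and 0.246 in the other forms. Some members that are not such partners had an r as high. *Col1a2* with *col6a2* had 0.935, *lamb2* with *col1a1* 0.815 and *lamc1* with *col1a1* 0.801, each picked as the nearest member. For *col4a2* the nearest member was its partner *col4a1* (0.739). A high r was thus not particular to partner chains. Libraries share their depth and their captured share of low genes, and differ in fibroblast markers. The part of these in the correlations was not tested.

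Genes outside the members whose log2 level over the 21 libraries was most like a member are given as a description. For *col18a1* these were *vamp8* (r = 0.822), *rnh1* (0.820) and *slc12a7* (0.771), and its nearest member was *col4a5* (0.784). For *smoc2* they were *vamp8* (0.761), *rarb* (0.760) and *cd74* (0.733), with *lamb2* (0.791) as the nearest member. *Col24a1* was most like *gfra1* (0.840), *derl2* (0.809) and *usp51* (0.805), and its nearest member, *col23a1*, had an r of 0.655. *Sparcl1* was most like *kif5a* (0.896), *sept4* (0.880) and *nkx2-2* (0.872), and *sparc* most like *agt* (0.917), *kif5a* (0.911) and *nkx2-2* (0.885). The 2 were nearest to each other among the members (0.893). For *col1a2* the nearest genes were *uaca* (0.927) and *serping1* (0.925), and the nearest member was *col6a2* (0.935). *Serping1* is among the fibroblast markers, as is *islr*, which was among the genes most like *col6a1* (0.778). The nearest member of *col6a1*, *lamb2* and *lamc1* was *col1a1* (0.725, 0.815 and 0.801). *Col23a1* was most like *klhdc8b* (0.938), *tbx3* (0.927) and *vat1* (0.886), and *hspg2* most like *bgn* (0.849), *bmp6* (0.839) and *fn1* (0.834).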

How the data were processed

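The counts are whole reads per gene, as deposited by the authors, from 21 libraries of ventral hypothalamus. Per the submitters' notes, the authors aligned reads to mm9 with STAR 2.5.1b and used Picard 2.7.1, and by the study's methods the libraries were resampled to a common depth with PORT. The library kit was stranded, but whether reads were counted by strand is not stated. Without molecular identifiers, reads are not independent molecules.

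Genes averaging at least 50 reads were tested with the edgeR 4.0.16 quasi-likelihood F-test (TMM, 1 mean per group, all libraries), adjusted by Benjamini-Hochberg over all genes tested, with a threshold of 0.15. The comparisons were the 6 pairs of groups, all 4 groups together, and the interaction. Alternatives were no filter, a filter at 5 reads, library size only, DESeq2 1.42.0, limma-voom (limma 3.58.1), robust dispersion, the share of low genes at 0 as a covariate, only the 2 groups compared, and each library left out in turn. Leaving out both libraries that stand apart, the alternatives for medians and for counts at an unadjusted p under 0.05, and 2 further gene pairs were added after seeing the data. The fits were also run on simulated data, and no result above rests on that run.

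Members and lists were chosen with earlier results of these data known. Values by library are given for members called in any comparison, the 6 members with the smallest p over all 4 groups, and the member with the most reads in each of 12 families. For RC → HFD these are the range and the median, and for the other groups the single libraries. From the lists of receptors, enzymes, proteases and other matrix genes, those with the smallest p over all 4 groups are named. Correlations used log2 levels scaled by library size and 100000 permutations. The fits ran in R 4.3.3, and tables and plots were made in Python 3.11.15 with pandas 2.3.3, numpy 2.4.6, matplotlib 3.10.9 and scipy 1.17.1.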

Additional observations from a re-analysis of the deposited data

Results flagged for a closer look

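In 7 of 116 groups of libraries (6.03%) 1 library lay far from the rest, where chance alone picks out about 1 group in 20. *Sparc* had 47487 reads in RC → HFD replicate 12, against 39518 to 41887 in the others. *Col4a2* had 2400 reads in HFD → RC replicate 17, against 1728 to 1891. *Hspg2* had 121 reads in RC → HFD replicate 10, against 207 to 229. *Col8a2* had 435 reads in HFD NoDS replicate 20, against 187 to 226. Choroid plexus markers summed to 3573 reads in HFD NoDS replicate 23, against 2997 to 3120. Microglia markers summed to 4990 reads in RC → HFD replicate 8, against 5522 to 5824. Pituitary markers summed to 2945 reads in HFD → RC replicate 13, against 65 to 513. *Col18a1* had an interaction of earlier and current diet of 1.08 on the log2 scale, called at an edgeR adjusted p of 0.145. This call was lost in 13 of 21 fits that left out 1 library and with a filter at 5 reads.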

How the results depend on the processing

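The number of member DEGs depended on the setting, and the cause was not tested. The number of DEGs over all genes tested at the same setting is in brackets, except for fits that left out 1 library. For RC NoDS v RC → HFD, 0 (5) became 2 (96) with DESeq2, 1 (24) with only the 2 groups and 1 (15) without both libraries that stand apart. For RC NoDS v HFD → RC, 2 (36) became 1 (30) with no filter, 1 (25) with a filter at 5 reads, 1 (10) with library size only, 1 (7) with limma-voom, 1 (27) with robust dispersion, 3 (147) with DESeq2, 0 (1) with the covariate and 4 (137) without both libraries. For RC → HFD v HFD NoDS, 1 (2) became 0 (1) with a filter at 5 reads, with the covariate and without both libraries, and 3 (32) with DESeq2. For HFD → RC v HFD NoDS, 1 (9) became 2 (10) with library size only, 2 (15) with the covariate, 6 (44) with DESeq2, 3 (12) with limma-voom, 0 (1) with only the 2 groups and 0 (3) without both libraries. Over all 4 groups, 2 (19) became 9 (133) with DESeq2, 1 (9) with the covariate, 3 (13) with limma-voom, and 3 (45) others without both libraries. In the interaction, 1 (4) became 0 (0) with a filter at 5 reads, 11 (116) with DESeq2, 5 (15) with limma-voom, 8 (33) with the covariate and 9 (191) without both libraries. Leaving out each library in turn gave 0 to 1 for RC NoDS v RC → HFD, 0 to 3 for RC NoDS v HFD → RC, 0 to 5 for RC → HFD v HFD NoDS, 0 to 2 for HFD → RC v HFD NoDS, 0 to 5 over all 4 groups and 0 to 13 in the interaction. No setting reversed the sign of the log2 fold change of a DEG named in the text. No paired analysis was possible because each replicate number occurs once.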
